A study of Drosophila melanogaster with 10 samples.

Results

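Cuticle protein genes encode the structural proteins that bind chitin in the insect exoskeleton. They were taken here as genes measured by a probe set for a single gene whose current symbol starts with Cpr and a digit, Ccp84, Lcp, Pcp, Edg78 or Edg84, together with Acp1. The rule found 71 genes among the 10843 genes with a probe set of their own, and where a gene had more than 1 probe set the brightest was used. Transcript levels were measured in heads of nonvirgin Drosophila melanogaster females aged 3 to 5 days, pooled from 100 to 200 heads, on 10 oligonucleotide arrays. Of these, 6 arrays came from chromosome substitution lines between the strains Z30 and Fr (1 array each of MMZ, MZM, MZZ, ZMM, ZMZ and ZZM), 2 from the strain Z30 and 2 from the strain Fr. A line is named by 3 letters, for its X, its second and finally the third chromosome, where Z means that the chromosome came from Z30 and M that it came from Fr. The labels say nothing of the fourth chromosome or the mitochondria of a line. The title of the series places the strains in a study of behavioural differentiation. No strain, line or array carried a treatment in the labels.

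The cuticle is a layered composite of chitin fibres and proteins secreted by the epidermis, and its inner layers are still being added after the adult fly emerges. Most of its proteins belong to the CPR family, named for the Rebers and Riddiford consensus through which they bind chitin. Their genes lie in clusters of tandem copies and are switched on in turn for the larval, the pupal and the adult cuticle, under control of ecdysone. The symbols carry some of this history: Lcp stands for larval cuticle protein, Pcp for pupal cuticle protein, Edg for ecdysone-dependent gene, Acp1 for adult cuticle protein 1 and Ccp84A for the cuticle cluster at 84A, while the numbers after Cpr give the cytological band.

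All levels are deposited signals on a linear scale, each array scaled by the authors to a common level. Differences were computed on log2 of the signal with a floor at a signal of 38.9, the pooled 20th percentile, and a fold is 2 to the power of such a difference and understates changes of dim genes. Levels of different genes are not compared, because each probe set has its own response. Replicate 1 of Z30 and replicate 1 of Fr stood apart from the other 8 arrays. Their highest signals were 28895 and 26039, against 46285 to 59815 on the others. Their hybridisation controls had geometric means of 538 and 651, against 1500 to 2179. On every array the highest signal was that of Yp1, so that measure is not separate from the fat body markers described below. They are treated as an array batch, and values with the batch as a block, or within a batch, stand beside the plain ones where they change a call or a size. The rank correlation of a gene's length with its deviation on an array, over 6809 genes that are not independent of each other, was -0.39 on MZM, -0.34 on Fr replicate 1, -0.22 on Z30 replicate 1, and -0.03 to 0.36 on the other 7. Cuticle protein genes past the filter were short, with a median gene length of 1326.5 bases against 2965 for all genes so measured, and the part of this length gradient in the results below was not tested. The labels do not say whether the replicates of a parent were separate cultures. The p-values therefore cover only array-to-array spread, which limma pools in part over probe sets and which may be technical in part or whole. In RNA from whole heads, fewer cells of a type and less RNA per cell cannot be told apart.

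Of the 71 genes, 32 had a mean log2 signal above the 40th percentile of all probe sets and entered the tests, and 39 did not. A total of 35 genes were above the floor on every array, 33 on some arrays, and Cpr49Ab, Cpr65Az and Cpr67Fa2 on none. By arm, the tested genes were 1 of 6 on 2L, 5 of 18 on 2R, 14 of 33 on 3L, 9 of 10 on 3R and 3 of 4 on X. Of the larval cuticle protein genes, Lcp65Aa and Lcp65Ac passed the filter and Lcp65Ad, Lcp65Af and Lcp9 did not. Of the genes named for the pupal stage or for ecdysone, Edg84A passed and Pcp and Edg78E did not. Pcp had signals of 9.9 to 83.3 over the lines, 55.4 and 95.3 in Z30 and 15.6 and 79.8 in Fr, so that it lay on both sides of the floor in the lines and in Fr. Edg78E had 19.4 to 75.4 in the lines, 7.2 and 41.8 in Z30 and 62.5 and 20.9 in Fr. Lcp65Ad, by contrast, was above the floor on all 4 parental arrays and under it in every line, as described below.

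The position of the genes was read from the Release 6 annotation. It holds 96 protein-coding genes that meet the rule on symbols, of which 67 lie in 17 runs of adjacent cuticle protein genes, the longest with 15 genes. A total of 45 of the 71 measured genes belong to such runs. The run at 84A holds, in order, Edg84A, Ccp84Ag, Ccp84Af, Ccp84Ae, Ccp84Ad, Ccp84Ac, Ccp84Ab and Ccp84Aa, and 5 of these were measured: Edg84A, Ccp84Ag, Ccp84Ae, Ccp84Ad and Ccp84Ac.

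Cuticle protein genes spread widely over the 10 arrays. The median ratio of the highest to the lowest array, after the floor, was 4.07 for the 32 tested genes and 2.55 for all 8379 tested probe sets, and 16 of the 32 (50%) spanned more than 4-fold against 22.7% of all. The widest ranges were those of Cpr5C (54.9-fold), Acp1 (37.7-fold), Ccp84Ag (20.6-fold), Cpr100A (18.2-fold), Cpr62Bb (16.3-fold) and Cpr92F (15.4-fold). At the other end, Edg84A varied 1.66-fold, Ccp84Ae 1.74-fold and Cpr64Ad 1.90-fold. Edg84A and Ccp84Ae lie in the same run of genes as Ccp84Ag, so the narrowest and one of the widest ranges were found within one cluster. The median deviation of the 32 genes from their own means ran from -0.40 on Z30 replicate 2 to 0.21 on ZMZ in log2 units. For all tested probe sets it ran from 0.01 on ZZM to 0.07 on Fr replicate 1. Most cuticle protein genes were thus low on Z30 replicate 2, with 6 of 32 above their mean, against 20 of 32 on ZMZ. Z30 replicate 1 held the highest value of 9 genes and Z30 replicate 2 the lowest value of 9, where 19.5% and 8.22% of all tested probe sets had theirs. Cpr64Aa was in both counts, and the other genes were in one of them.

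**Figure D1:**
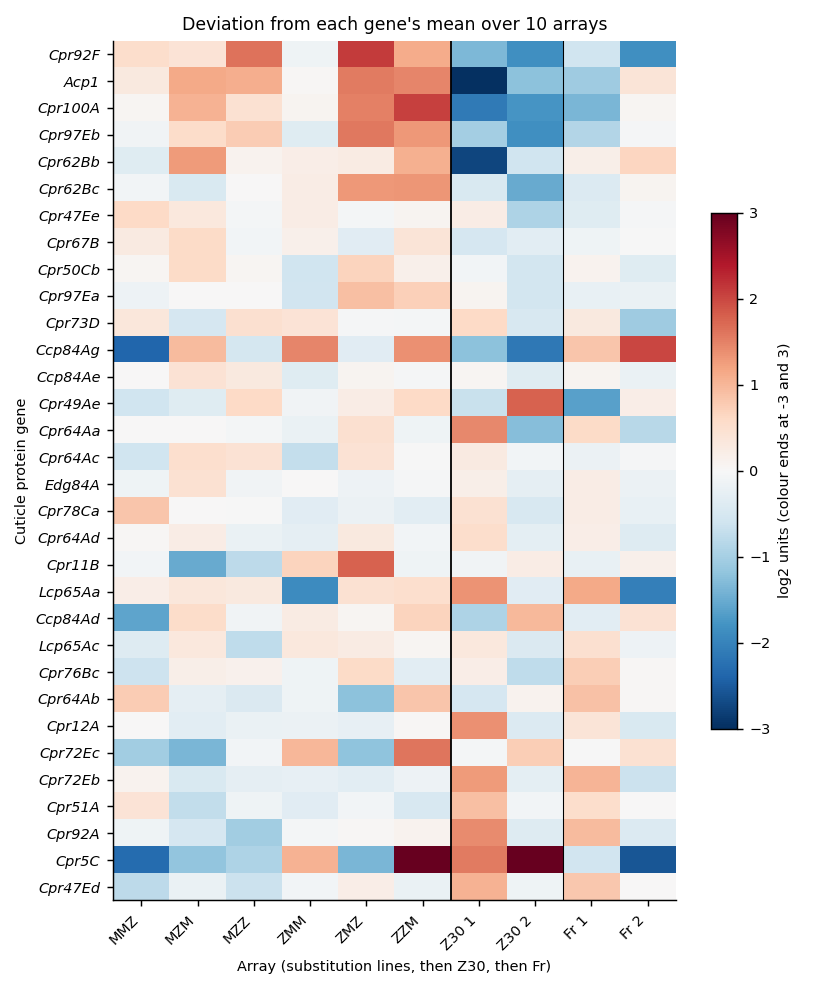
Log2 deviation (colour, blue below and red above 0) of each of the 32 tested cuticle protein genes (rows) from its own mean, on each of the 10 arrays (columns: 6 substitution lines, then Z30, then Fr). Cpr5C, Acp1, Ccp84Ag and Cpr100A show the strongest contrasts between arrays, while Edg84A and Ccp84Ae stay near their means.

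The first question the design poses is whether the parental strains differed. The genes with the largest differences were Cpr5C, higher in Z30, and Ccp84Ag, Acp1 and Cpr62Bb, lower in Z30. None of the 32 genes passed limma's test on the 4 parental arrays without a block at an adjusted p of 0.05 (0.0358% of all probe sets were called), and 5 had an unadjusted p under 0.05, or 15.6% against 4.19% of all probe sets. With the batch as a block, which left 1 residual degree of freedom, 8 of the 32 passed, where 6.58% of all 8379 probe sets were called. Of these, 3 were higher in Z30 (Cpr5C, Cpr49Ae and Lcp65Aa), where 2.82% of all probe sets were called higher, and 5 were lower (Acp1, Ccp84Ag, Cpr62Bb, Cpr100A and Cpr97Eb), where 3.76% of all were called lower. The blocked test without limma's mean-variance trend called 2 of them, Ccp84Ag (adjusted p = 0.0390) and Acp1 (adjusted p = 0.0402), with 0.561% of all probe sets called. With the trend, the SE and p-values of the blocked fit rest largely on the spread of other probe sets of like signal. They do not measure how far a gene's own difference varied between the batches. The blocked test without the filter on dim probe sets called none of 13966 (0.0%), with 950 probe sets and 5 cuticle protein genes at an unadjusted p under 0.05. As a group the genes had no common direction, with a median log2 difference of -0.03 against 0.02 for all probe sets.

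Cpr5C, an X-linked CPR gene, had signals of 677 and 2134 in Z30, against 156 and 22.0 in Fr. Both Z30 arrays lay above both Fr arrays. The means were 1406 ± 1030 in Z30 and 88.9 ± 94.5 in Fr (SD, n = 2 each), a 15.4-fold difference on the floored scale, with a log2 difference of 3.95 ± 0.33 (SE) in the blocked fit. Its adjusted p in limma was 3.0e-30 with the block, 0.0701 with the block and no trend, and 0.414 without the block. The difference was 2.12 log2 units within the batch of first replicates and 5.78 in the other batch, where the Fr array was under the floor. The SE of 0.33 does not reflect the gap between these values. The Fr mean was under the filter signal of about 122, so the gene passed the filter through arrays where it was high.

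Ccp84Ag, the cuticle protein gene of the 84A cluster with the largest spread, had 185 and 97.8 in Z30, against 781 and 1734 in Fr. The Z30 arrays were both lower, with means of 141 ± 61.7 in Z30 and 1257 ± 674 in Fr (SD, n = 2 each). The log2 difference was -3.11 ± 0.30, or 8.65-fold, with limma's adjusted p at 1.1e-21 with the block and 0.264 without it. Within the batches it was -2.08 and -4.15. The other genes of the 84A run did not follow it: Ccp84Ae had 1559 and 1155 in Z30, against 1569 and 1309 in Fr, and Edg84A had 362 and 265 in Z30, against 376 and 282 in Fr. Ccp84Ad, whose probe set is marked by its name as shared within a gene family and is therefore uncertain, had 470 and 1734 in Z30, against 713 and 1210 in Fr. For these neighbours the arrays of the same replicate number were closer than those of the same strain.

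Acp1, the adult cuticle protein gene, had 745 and 4016 in Z30, against 4558 and 12390 in Fr. All Z30 values lay below all Fr values, but the replicates of each strain differed widely, with means of 2381 ± 2313 in Z30 and 8474 ± 5539 in Fr (SD, n = 2 each). The log2 difference was -2.12 ± 0.20 in the blocked fit, with limma's adjusted p at 1.6e-23, and -2.12 ± 0.80 without the block, with an adjusted p of 0.9998. It was -2.61 within the batch of first replicates and -1.63 in the other.

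The other CPR genes called with the block had smaller differences. Cpr62Bb had 28.9 and 173 in Z30, against 294 and 411 in Fr, a log2 difference of -2.08 ± 0.45 (limma's adjusted p = 1.8e-04 with the block). Cpr100A had 317 and 410 in Z30, against 538 and 1440 in Fr, a log2 difference of -1.29 ± 0.29 (limma's adjusted p = 3.6e-04 with the block). Cpr97Eb had 280 and 161 in Z30, against 313 and 561 in Fr, a log2 difference of -0.98 ± 0.33 (limma's adjusted p = 0.0456 with the block). In all 3 genes the Z30 arrays lay below the Fr arrays, with the Fr value of the second replicate highest. Their sizes differed between the batches: -2.92 and -1.25 for Cpr62Bb, -0.76 and -1.81 for Cpr100A, and -0.16 and -1.80 for Cpr97Eb.

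Among the genes called higher in Z30 with the block, Cpr49Ae had 594 and 3215 in Z30, against 304 and 1082 in Fr. The groups overlapped, although Z30 was higher within each batch, by 0.96 and 1.57 log2 units, and the blocked log2 difference was 1.27 ± 0.27 (limma's adjusted p = 1.6e-04). Lcp65Aa, the larval cuticle protein gene, had 1217 and 379 in Z30, against 1053 and 116 in Fr. These groups overlapped too, and the difference of 0.96 ± 0.29 (limma's adjusted p = 0.0212 with the block) came to 0.21 within the first batch and 1.71 within the other. Neither Cpr49Ae nor Lcp65Aa passed the blocked test without the trend, where their adjusted p in limma were 0.124 and 0.344.

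**Figure D2:**
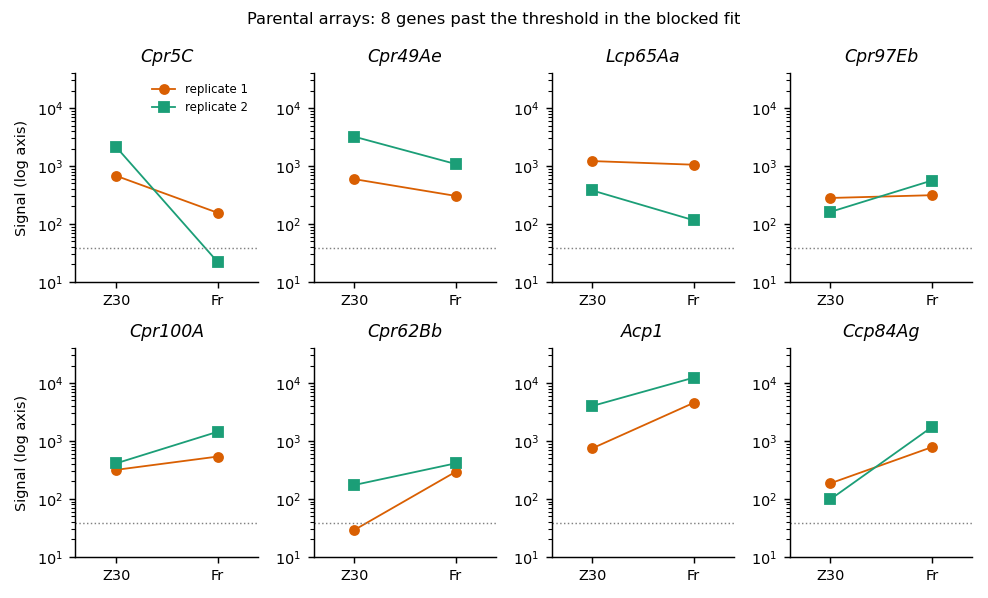
Signal (log axis) in Z30 and in Fr of the 8 genes past the threshold in the blocked fit, 1 point per array, with a line joining the arrays of each replicate number and a dotted line at the floor. Within both replicate numbers Z30 lies below Fr for Ccp84Ag, Acp1, Cpr62Bb and Cpr100A and above it for Cpr5C and Cpr49Ae, while Lcp65Aa and Cpr97Eb differ little in replicate 1.

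A further set of genes followed the replicate number and not the strain. Cpr64Aa, a CPR gene of the run at 64A, had 2006 and 305 in Z30, against 1092 and 414 in Fr. Cpr72Eb had 836 and 280 in Z30, against 696 and 219 in Fr. Cpr92A had 961 and 277 in Z30, against 696 and 272 in Fr. In all 3 genes both first replicates lay above both second replicates, and the strains overlapped. Cpr47Ed likewise had 484 and 218 in Z30, against 414 and 240 in Fr, and Cpr12A 681 and 197 in Z30, against 343 and 191 in Fr. Acp1, Cpr49Ae and Ccp84Ad ran the other way, with the second replicate of each strain above its first. None of the genes named here for the replicate number was called between the strains, apart from Acp1 and Cpr49Ae with the block.

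Counted without a test, 8 of the 32 genes had Z30 arrays that did not overlap the Fr arrays, where 28.5% of all tested probe sets did not overlap. Cpr5C was higher in Z30, and Acp1, Ccp84Ag, Cpr100A, Cpr62Bb, Cpr62Bc, Cpr67B and Cpr97Eb were lower. The total is 8 of 32, near the share found among all probe sets, and the split was 1 higher and 7 lower where 14.9% and 13.7% of all probe sets were higher and lower. Among all 71 genes, dim ones included, 11 did not overlap, against 26.0% of all probe sets, with 4 higher and 7 lower. The added ones, Cpr11A, Cpr72Ea and Lcp65Af, were all higher in Z30. Cpr67B had 1564 and 1783 in Z30, against 2020 and 2193 in Fr, and Cpr62Bc had 434 and 207 in Z30, against 446 and 622 in Fr. Neither passed limma's test.

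The calls rested on few arrays. Without the block and without 1 array, limma called Cpr49Ae, Ccp84Ag and Cpr5C when Z30 replicate 1 was left out (0.251% of all probe sets were called) and Ccp84Ag and Acp1 when Z30 replicate 2 was left out (0.501%). It called Ccp84Ag and Cpr5C when Fr replicate 1 was left out (0.167%), and none when Fr replicate 2 was left out (0.0835%), with 3 of the 32 genes at an unadjusted p under 0.05. In each such fit 1 strain had a single array, which is assumed to vary like the pair of the other strain. Markers of some other tissues also differed between these arrays. The summed signal of 3 muscle markers was 12001 to 21841 in Z30 and 13677 to 34256 in Fr, and that of 5 fat body markers was 89405 to 148474 in Z30 and 81738 to 148205 in Fr. Within the fat body list limma's blocked fit called Lsp2 lower in Z30 (log2 difference -1.34, adjusted p = 8.3e-08) and fit higher in Z30 (0.75, adjusted p = 2.6e-06). The part of these tissues in the differences of cuticle protein genes was not tested.

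The lines allow the origin of each chromosome to be compared on 5 arrays against 5, in a model that adds the effects of the 3 chromosomes over all 10 arrays. For the first (X) chromosome, limma called none of the 32 genes with or without the batch block, where 0.107% and 0.0597% of all probe sets were called. At an unadjusted p under 0.05 there were 2 genes without the block, Cpr5C and Cpr11B, both of which lie on the X chromosome, and Cpr92A was added with the block. These are 6.25% and 9.38% of the 32 genes, against 2.47% and 4.67% of all probe sets. Of all tested probe sets on the X chromosome, 8.45% had such a p without the block. Cpr5C averaged 1072 ± 929 on arrays with the Z30 chromosome and 89.5 ± 54.6 on those with the Fr chromosome (SD, n = 5 each). The lower mean was under the filter signal of about 122, so Cpr5C was tested only through arrays with the Z30 chromosome, where it was high. Among the lines with the Z30 chromosome it had 472 in ZMM, 88.6 in ZMZ and 1988 in ZZM, against 46.8 in MMZ, 102 in MZM and 121 in MZZ. ZMZ thus lay within the range of the lines that carry the Fr chromosome. The log2 difference was 2.81 ± 0.60, or 6.99-fold, with limma's adjusted p at 0.380 without and 0.174 with the block. Over the 6 lines alone it was 2.60, and over the 8 arrays of the larger batch 3.24.

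Cpr11B, a second X-linked CPR gene, averaged 1563 ± 1020 on arrays with the Z30 X chromosome and 747 ± 292 on those with the Fr X chromosome (SD, n = 5 each). It had 1555 in ZMM, 3324 in ZMZ and 891 in ZZM, against 926 in MMZ, 343 in MZM and 567 in MZZ. The parents were close to each other, with 909 and 1135 in Z30 and 828.5 and 1073 in Fr. The log2 difference by X origin was 1.14 ± 0.22 (limma's adjusted p = 0.194, and 0.126 with the block). By the origin of the second chromosome the same gene had a log2 difference of opposite sign, -1.23 ± 0.22, with limma's adjusted p at 0.137 without and 0.0540 with the block, and means of 769 ± 313 for Z30 origin and 1541 ± 1035 for Fr origin (SD, n = 5 each). The highest level was in ZMZ and the lowest in MZM, 2 lines that differ in all 3 chromosomes. Cpr12A, the third tested gene on the X chromosome, had a log2 difference of 0.18 by X origin.

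**Figure D3:**
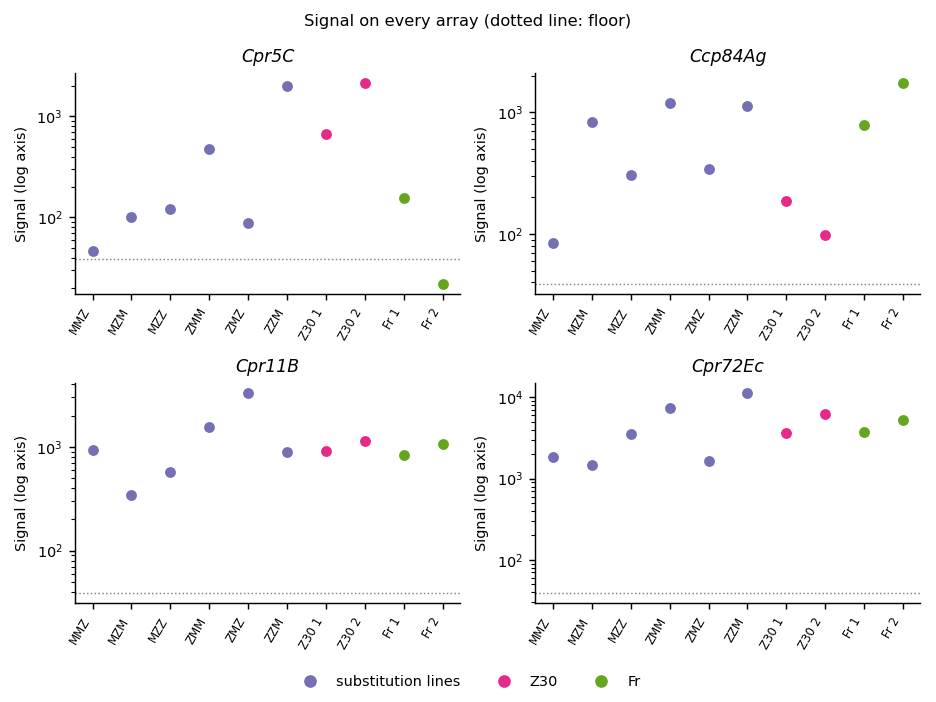
Signal (log axis) of Cpr5C, Ccp84Ag, Cpr11B and Cpr72Ec on each array, with the 6 lines left, then Z30, then Fr, and a dotted line at the floor. Ccp84Ag lies at 84.3 to 345 on arrays with the third chromosome from Z30 and at 781 to 1734 on those with it from Fr, while Cpr5C overlaps by X origin.

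For the second chromosome, limma again called none of the 32 genes without the block or with it, where 0.0358% and 0.155% of all probe sets were called, and 2 genes, Cpr11B and Cpr5C, had an unadjusted p under 0.05 either way. These are 6.25% of the 32 genes, against 4.08% of all probe sets without the block and 7.77% with it, so the count was not above the background of the blocked fit. Both of these lie on the X chromosome. Cpr5C had a log2 difference of 1.92 ± 0.60 (limma's adjusted p = 0.731, and 0.380 with the block). Cpr49Ae, which lies on the second chromosome, averaged 1486 ± 1043 with Z30 origin and 799 ± 336 with Fr origin (SD, n = 5 each), a log2 difference of 0.61 ± 0.47 (limma's adjusted p = 0.9999, and 0.645 with the block). Acp1, also on the second chromosome, had a log2 difference of -0.25 ± 0.92 by the origin of that chromosome over all 10 arrays and 1.10 over the 6 lines alone, so its sign depended on the arrays used. No tested gene separated by the origin of the X or of the second chromosome, where 0.943% and 1.11% of all probe sets did.

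The third chromosome carries 23 of the 32 tested genes, and Ccp84Ag separated by its origin. Its signals were 84.3 in MMZ, 304 in MZZ, 345 in ZMZ and 185 and 97.8 in Z30, against 837 in MZM, 1204 in ZMM, 1118 in ZZM and 781 and 1734 in Fr. All 5 arrays with this chromosome from Z30 lay below all 5 with it from Fr, with means of 203 ± 118 for Z30 origin and 1135 ± 380 for Fr origin (SD, n = 5 each). The log2 difference was -2.65 ± 0.44, or 6.29-fold. It did not pass limma's test without the block (adjusted p = 0.0659) and passed with the batch as a block (adjusted p = 0.0315), where 0.406% of all probe sets were called against 0.0955% without it. With the block and no mean-variance trend the adjusted p in limma was 0.0705, and 0.155% of all probe sets were called. Leaving out 1 array at a time without the block gave an adjusted p from 0.0311 (without MZZ) to 0.368 (without MMZ). The lines alone gave -1.63 log2 units and the larger batch -2.79, so the size was smaller without the parental arrays. Ccp84Ag was the single tested gene whose arrays did not overlap by the origin of the third chromosome, where 1.58% of all tested probe sets did not overlap.

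At an unadjusted p under 0.05 there were 3 genes by this origin with or without the block, Ccp84Ag, Ccp84Ad and Cpr62Bb, or 9.38% of the 32, against 4.49% of all probe sets without the block and 7.51% with it. All 3 are among the 23 genes on the third chromosome. Of all tested probe sets on that chromosome, 7.95% had such a p without the block. Of the 5 fat body markers 1 moved with this origin, the storage protein gene Lsp2, which itself lies on arm 3L. It had 482 to 2204 with the chromosome from Z30 and 1913 to 28018 with it from Fr. Its log2 difference was -4.28 ± 0.49 (limma's adjusted p = 0.0064). The other fat body markers had the opposite sign and were not called, at 0.10 for Yp1, 0.03 for Yp2, 0.11 for Yp3 and 0.61 for fit. The median of the 5 was 0.10 log2 units by this origin. The part of fat body in the difference of Ccp84Ag was not tested.

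The neighbours of Ccp84Ag at 84A had smaller differences by the same origin, and the difference between them and Ccp84Ag was not tested. Ccp84Ad had a log2 difference of -0.83 ± 0.38 (limma's adjusted p = 0.998), Ccp84Ae 0.05 and Edg84A -0.20. Ccp84Ac, which was too dim for the filter, had 75.5, 80.9 and 151 in MMZ, MZZ and ZMZ and 189 and 45.9 in Z30, against 134, 46.2 and 70.5 in MZM, ZMM and ZZM and 199 and 56.6 in Fr. These values overlap throughout. Of the other genes on the third chromosome, Cpr62Bb had a log2 difference of -1.25 ± 0.54 by its origin (limma's adjusted p = 0.998, and 0.304 with the block) and -0.56 over the lines alone.

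Cpr72Ec, described as a component of the corneal lens, had 1843 in MMZ, 3569 in MZZ, 1640 in ZMZ and 3638 and 6264 in Z30, against 1465 in MZM, 7492 in ZMM, 11428 in ZZM and 3760 and 5202 in Fr. The groups overlap, with the lines ZMM and ZZM highest, and the log2 difference by origin of the third chromosome was -0.92 ± 0.47. It was called together with Ccp84Ag when the batch was a block and MZM was left out, a fit chosen after seeing the data that called 0.549% of all probe sets. There its difference was -1.55 (limma's adjusted p = 0.0092). Without the block it was -1.51 without MZM and -0.50 without ZMZ. Cpr66D, another protein described in the corneal lens, did not pass the filter and had 35.9 to 204 in the lines, 102 and 61.9 in Z30 and 75.7 and 150 in Fr.

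**Figure D4:**
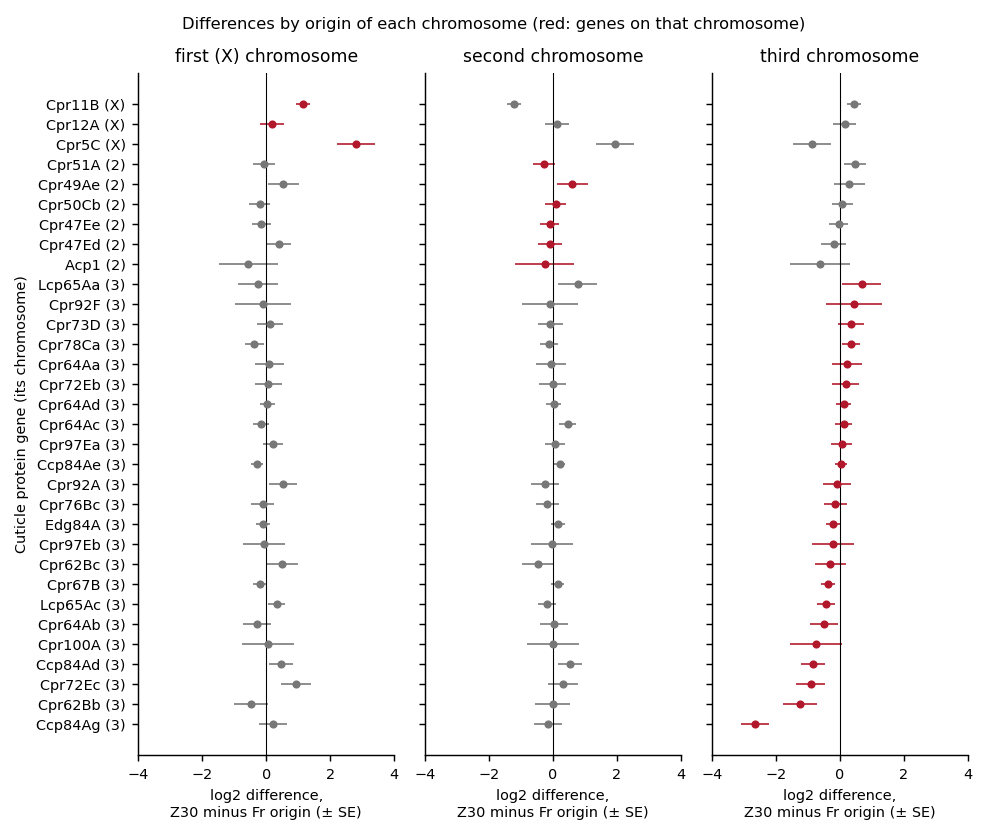
Log2 difference of each tested cuticle protein gene (rows) by the origin of the first, the second and the third chromosome (panels), as Z30 origin minus Fr origin in the additive model over 10 arrays. Points are estimates, bars are SE, and red marks genes that lie on the chromosome of the panel. The largest values are 2.81 for Cpr5C by the first, 1.92 for Cpr5C by the second and -2.65 for Ccp84Ag by the third chromosome.

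The lines carry chromosomes of both strains and the parents of 1 strain, and the origins are balanced within both classes. Cpr92F, Acp1, Cpr100A and Cpr97Eb were higher in the lines by 2.96-fold to 5.11-fold without the block. None of the 32 genes passed limma's test with or without it (0.0% of all probe sets were called). At an unadjusted p under 0.05 there were 8 of the 32 genes without the block, or 25.0% against 15.9% of all probe sets, and 8 with the batch as a block, against 7.97% of all. The median log2 difference of the 32 genes was 0.02 without the block and 0.33 with it, with 18 and 24 genes higher in the lines, beside medians of -0.04 and -0.01 for all probe sets. Called genes appeared in limma when Fr replicate 2 was left out, with Acp1 (adjusted p = 0.0432) and Cpr100A (adjusted p = 0.0256) among 237 called probe sets (2.83% of all).

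Cpr92F, a CPR gene, had 127 in the lowest line, a median of 252 and 600 in the highest, against 54.6 and 14.0 in Z30 and 91.5 and 29.5 in Fr. Every line lay above every parental array, and the log2 difference was 2.35 ± 0.49, or 5.11-fold (limma's adjusted p = 0.141, and 0.411 with the block, where it was 2.78). Every parental value was under the filter signal of about 122, so Cpr92F entered the tests only through the lines, where it was high. Cpr100A had 1456 in the lowest line, a median of 2375 and 5752 in the highest, against 317 and 410 in Z30 and 538 and 1440 in Fr. Its lines also lay above all parents, by a small margin over Fr replicate 2. The log2 difference was 2.17 ± 0.46, or 4.50-fold (limma's adjusted p = 0.150, and 0.504 with the block, where it was 1.72).

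Acp1 had 9712 in the lowest line, a median of 20520 and 28086 in the highest, against 745 and 4016 in Z30 and 4558 and 12390 in Fr. The lines ZMM and MMZ fell below Fr replicate 2, so the classes overlapped. The log2 difference was 2.33 ± 0.59 (limma's adjusted p = 0.184), and 1.36 within the larger batch. Cpr97Eb had 447 in the lowest line, a median of 905 and 1717 in the highest, against 280 and 161 in Z30 and 313 and 561 in Fr, a log2 difference of 1.56 ± 0.46 (limma's adjusted p = 0.191) that was 1.55 within the larger batch. Here too the lowest lines, ZMM and MMZ, overlapped with Fr replicate 2. Cpr97Ea, the neighbour of Cpr97Eb, had a log2 difference of 0.37, and Cpr62Bc one of 0.96 ± 0.39. In the other direction, the largest difference was that of Cpr47Ed at -0.72 ± 0.31, which was -0.24 within the larger batch.

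**Figure D5:**
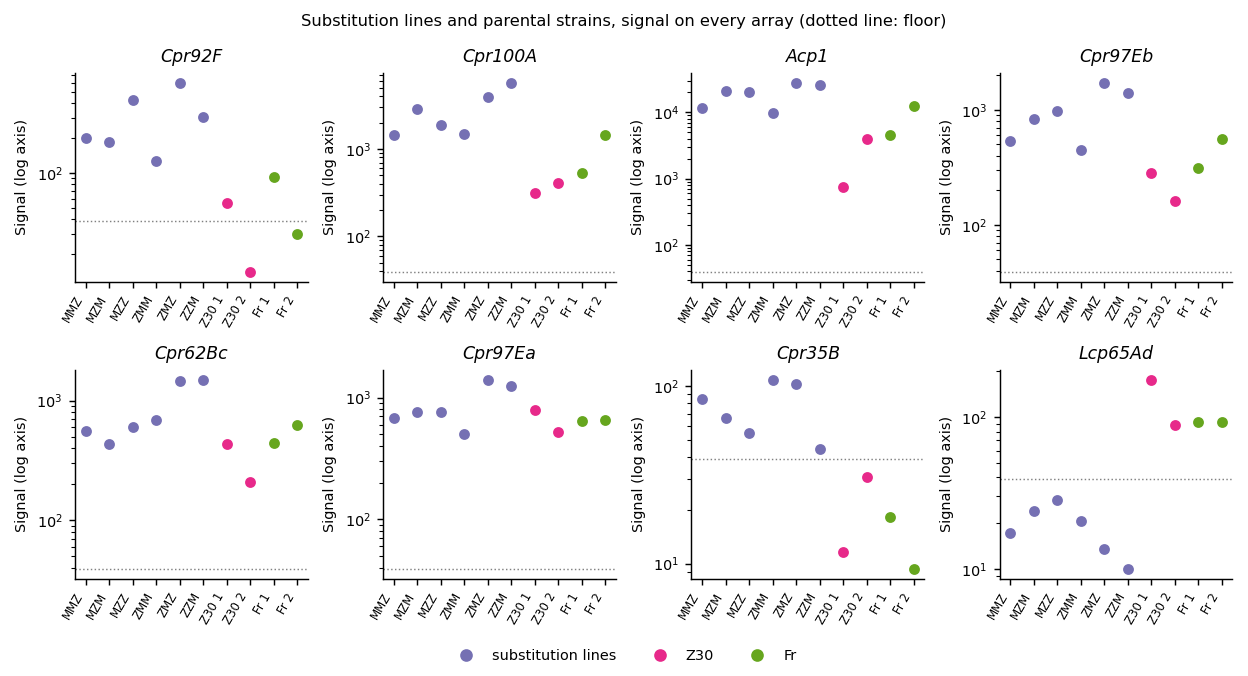
Signal (log axis) of Cpr92F, Cpr100A, Acp1, Cpr97Eb, Cpr62Bc, Cpr97Ea, Cpr35B and Lcp65Ad in the 6 lines, in Z30 and in Fr, 1 point per array, with a dotted line at the floor. All lines lie above all parents for Cpr92F and Cpr100A, while Acp1 in ZMM and MMZ lies below Fr replicate 2.

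Of the 32 tested genes 2, Cpr92F and Cpr100A, separated the lines from the parents, where 4.06% of all tested probe sets separated them. Cpr92F was among the 32 only through its level in the lines, so its place in this count follows in part from the filter. Among all 71 genes, dim ones included, 4 separated the lines from the parents, where 3.47% of all probe sets did, and the other 2 were Cpr35B and Lcp65Ad. Lcp65Ad, a larval cuticle protein gene, was under the floor in every line, at 28.3 or less, against 176 and 88.2 in Z30 and 92.5 and 92.8 in Fr, which makes it at least 2.76-fold lower in the lines. Cpr35B had 44.0 to 109 in the lines, against 11.6 and 30.9 in Z30 and 18.4 and 9.3 in Fr, all of them under the floor, which makes it at least 1.87-fold higher in the lines. Neither gene entered the tests.

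Markers of some other tissues differed between lines and parents too, in part with the array batch. The fat body list holds Yp1, whose signal is the maximum that helped to mark the batch. The summed signal of the 3 measured muscle markers was 27640 to 61673 in the lines, 12001 to 21841 in Z30 and 13677 to 34256 in Fr. That of 5 fat body markers was 156284 to 180809 in the lines, 89405 to 148474 in Z30 and 81738 to 148205 in Fr, and that of 4 photoreceptor markers was 71250 to 98940 in the lines, 52673 to 76134 in Z30 and 46153 to 67246 in Fr. With the batch as a block the median log2 difference between lines and parents became 0.60 for muscle markers (1.43 without), 0.12 for fat body markers (0.61 without) and 0.28 for photoreceptor markers (0.55 without). Other tissues did not share this direction. The median was 0.05 for glia markers (0.02 without), -0.34 for hemocyte markers (-0.23 without), -0.14 for neuron markers (0.66 without) and 0.44 for ovary markers (-0.001 without). Within the fat body list, fit went the other way, at -0.56 without and -0.85 with the block. Of the 5 markers of male reproduction, Acp26Aa and Acp36DE were under the floor on every array, while SP (85.0 to 273), Mst84Da (131 to 357) and Mst87F (90.3 to 355) were above it on every array, with none called between lines and parents by limma. The part of these tissues in the higher levels of cuticle protein genes was not tested.

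Genes that make and shape the chitin to which these proteins bind were listed as well. Of 10 measured genes of chitin synthesis and assembly 7 passed the filter, limma called none in any of the 5 comparisons with or without the block, and their median log2 difference between lines and parents was 1.18, or 0.92 with the block, beside -0.04 and -0.01 for all probe sets. Cda4, a chitin deacetylase, had 488 to 1132 in the lines, against 321 and 301 in Z30 and 318 and 331 in Fr, and these did not overlap (log2 difference 1.18 ± 0.22, limma's adjusted p = 0.123). The chitin deacetylase serp had 835 to 2706 in the lines, against 75.8 and 367 in Z30 and 82.3 and 930 in Fr, with overlap between ZMM and MMZ and Fr replicate 2 (log2 difference 2.69 ± 0.70, limma's adjusted p = 0.184). It was 1.25 within the larger batch. The list did not share 1 direction. Without the block mmy and knk were lower in the lines (log2 differences -0.52 and -0.72), and with it they were 0.35 and 0.10. The values of kkv, verm and Cda5 without the block were 0.50, 1.26 and 2.02. Other lists had smaller medians between lines and parents, with none called by limma. The median was 0.37 (0.40 with the block) for 15 tested genes of other cuticle protein families (Twdl, Vajk and obst genes and relatives). For 4 chitinases it was 0.20 (0.42 with the block). It was 0.52 (0.07) for 6 tanning and pigment genes and -0.03 (0.06) for 5 hormone response factors. Within the other cuticle protein families the differences without the block ran from -0.65 for TwdlD to 2.63 for Vajk3. Vajk3 had 383 to 1723 in the lines, against 65.1 and 120 in Z30 and 102 and 292 in Fr.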

How the data were processed

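Values are intensity per probe set and array on a linear scale, as deposited by the authors. The program that made them, its version and its settings were not given in the sources used here. A 2% trimmed mean of 500.1 on every array shows that each array had been scaled before deposit, and no further normalization was applied.

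Of 14010 probe sets, 44 controls were dropped. Values under 38.9, the pooled 20th percentile, were set to it, log2 was taken, and 8379 of 13966 probe sets with a mean log2 above the 40th percentile (a signal of about 122) were tested. Of the 13966, 12442 had 1 gene, 327 several and 1197 none, and symbols were updated for 12393 through Entrez identifiers to the Release 6 annotation. The number of arrays limits the precision.

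Linear models were fitted with limma 3.58.1 under R 4.3.3 (lmFit and eBayes with a variance trend). The p-values were adjusted by Benjamini-Hochberg over all tested probe sets, with a threshold of 0.05. Parents were fitted on 4 arrays (2 residual degrees of freedom), chromosome origins on 10 (6) and class with origins on 10 (5). Replicate numbers of the parents are the labels' own. The batch was inferred from control and maximum signals, and within the parents it coincides with the replicate number. The members and gene lists were chosen with earlier results of these data known. Named genes are 5 markers, every called gene, the 12 brightest, the 10 widest in range and the 5 largest differences in each direction per comparison, of which the text gives those that matter most. Alternatives left out each array, changed the floor, filter, scaling and variance trend, and used a block or a part of the arrays.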

Additional observations from a re-analysis of the deposited data

Results flagged for a closer look

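In 8 of 128 groups of 4 to 6 arrays, 1 array lay far from the others relative to the range of its group, where chance alone flags about 1 group in 20. The count was near that share, and the groups share arrays, so the cases are listed only for a closer look. In the lines, Ccp84Ad was lowest in MMZ at 299.5, against 825 to 1423 in the other lines, and Lcp65Aa was lowest in ZMM at 130.2, against 555 to 680. Also in the lines, Cpr64Aa was highest in ZMZ at 1029.9 (others 644 to 745), Cpr78Ca was highest in MMZ at 388.3 (others 173 to 219), and Edg84A was highest in MZM at 440.4 (others 288 to 323). Among the 5 arrays that carry a gene's own chromosome from Z30, Z30 replicate 1 was the odd array in 3 cases: Cpr12A was highest at 681.2 (others 197 to 270), Cpr72Eb was highest at 835.6 (others 276 to 368), and Cpr62Bb was lowest at 28.9 (others 173 to 311).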

How the results depend on the processing

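For 19 differences of named genes, 305 values under other settings were computed, of which 297 kept their direction. Part of the 305 could not turn, because leaving out the filter or the variance trend repeats the same difference. A block with all arrays kept does so too for the parents and the chromosome origins. The count of kept directions is therefore not a measure of robustness. Leaving out 1 array at a time gave 0 to 3 genes called between the parents, 0 to 2 between lines and parents and 0 to 1 by the third chromosome, against 0 in each with all arrays, and 0 throughout by the first and second. With the replicate number as a block the parents gave 8 genes called, or 2 without the variance trend. With the batch as a block the third chromosome gave 1, or 2 with MZM left out, which was added after seeing the data. The replicate block rests on 2 pairs: deviations of same-numbered arrays correlated at 0.64 over 8379 probe sets and 0.55 over the 32 genes, which does not show that the numbers pair cultures. Directions turned for 4 differences. Leaving out an array gave -0.63 to 2.55 for Lcp65Aa and -0.99 to 0.24 for Cpr92F between the parents, -0.87 to 0.82 for Acp1 by the second chromosome and -0.29 to 1.22 for Cpr92F by the third. For Acp1 by the second chromosome the larger batch gave 0.039 and the lines alone 1.10. The cause was not tested. With 2 arrays per parent, 1 per line and many members near the floor, a gene that missed the threshold is not shown to be equal between groups.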

Other observations

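Some dim genes were bright in a single line. Cpr76Bd had a signal of 356 in ZMZ, against 33.1 to 81.0 in the other lines, 37.6 and 37.5 in Z30 and 37.0 and 43.3 in Fr. Cpr47Ea had 157 in ZMZ and was under the floor on the other 9 arrays. ZMZ has 1 array, so these values have no replicate check.

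The difference between the parents was also set against the sum of the 3 chromosome effects estimated in the lines alone, a comparison chosen after seeing the data. For Acp1 the parental difference minus that sum was -4.75 ± 1.97 log2 units and for Cpr97Eb it was -4.56 ± 1.26. The smallest adjusted p of the 32 genes in limma was 0.980, none of 8379 probe sets was called, and 7 of the 32 genes and 323 of all 8379 probe sets had an unadjusted p under 0.05.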
